A study of Mus musculus with 2 samples.

Results

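Endothelial nuclei of the fetal testis were examined in single-nucleus RNA and ATAC data from whole mouse testes at E14.5. They were chosen by the measured RNA of 8 endothelial genes: among 7492 kept nuclei of 9833 deposited barcodes, the 80 with the highest share of UMIs (counted RNA molecules) in *Pecam1*, *Egfl7*, *Cdh5*, *Kdr*, *Flt1*, *Ptprb*, *Tek* and *Cyyr1* were taken. They made up 1.07% of the kept nuclei, and the other 7412 kept nuclei served as the comparison. The embryos came from *Nr5a1-cre* parents mated with *Rosa-tdTomato* parents, the Cre being driven by the regulatory sequence of a gene of gonadal somatic and adrenal cells. No treatment was named, and no mutant or other group was in the series for comparison. The testes were frozen whole, and 1 RNA library and 1 ATAC library were made from the same nuclei. How many embryos were pooled was not found in the labels or methods. With 1 library per assay there was no replicate, so no p-value is given, and the 95% intervals below cover counting error only.

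Endothelial cells line blood and lymphatic vessels. They sense VEGF through the receptors KDR and FLT1, angiopoietins through TEK, and hold to one another through CDH5 and PECAM1. Transcription factors of the ETS, SOX and GATA families set up their gene programme, and Notch signals favour arterial over venous identity. In the fetal testis, endothelial cells migrate in from the neighbouring mesonephros and build an artery along the surface with branches between the forming cords.

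The endothelial nuclei held 915400 UMIs in all, from 2145 to 38983 per nucleus, and the others 78177141. The median was 8486 UMIs and 3227 genes in the endothelial nuclei, against 8243 UMIs and 3230 genes in the others. In the ATAC library they held 361879 unique fragments, with a median of 4106 per nucleus against 4612. Levels are given as CPM, which scales the UMIs of a gene by the total of its group, and a ratio is the level in the endothelial nuclei over that in the others. A gene was taken as higher or lower when it differed at least 2-fold, read only for genes with at least 100 UMIs over both groups. A sparse gene can pass that limit only because it is high in the endothelial nuclei, so counts over whole lists, with no limit, are given beside the counts of genes that passed. Of 15277 such genes, 7.90% were at least 2-fold higher and 25.0% at least 2-fold lower in the endothelial nuclei, and the median ratio was 0.841.

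The values that chose the nuclei are a description. The 8 genes took 1.17% of the UMIs of the highest nucleus, 0.647% of the median endothelial nucleus and 0.294% of the last. The nuclei at ranks 81, 82 and 83, just outside, had 0.293%, 0.291% and 0.289%, so that no gap lay at the limit. *Flt1* was found in 79 of the 80 nuclei, with 0 UMIs in the lowest, a median of 16 and 56 in the highest. *Ptprb*, a phosphatase that acts on TEK, was found in all 80, with 1 UMI in the lowest, a median of 9.5 and 37 in the highest. *Egfl7*, *Kdr* and *Pecam1* were each found in 76 nuclei. *Pecam1* also had UMIs in 39.1% of the 299 nuclei with the highest germ marker share, at 54.4 CPM, whereas *Egfl7* had UMIs in 2.01% of them.

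The endothelial label was described further with genes outside the rule. Their list was chosen with earlier results of these data known, so it is no independent check. Of 30 further endothelial genes, between 8 and 28 had a UMI in each of the 80 nuclei, and 78 nuclei had at least 10 of them. Among the other 7412 nuclei, 21 had at least 10, which is 0.283%. By rank, the summed level of the 30 genes was 10971 CPM at ranks 1 to 20, 7425 at ranks 21 to 40, 6171 at ranks 41 to 60 and 4309 at ranks 61 to 80. It was still 2655 CPM at ranks 81 to 100, and 722 CPM over the next 20 ranks. The nuclei at ranks 81 to 100 had a median of 26039 UMIs and 18.5 of the 30 genes, so endothelial RNA went on past the limit in deep nuclei. Their median doublet score, which rises when a nucleus resembles a mixture of others, was 0.1999, against 0.164 at ranks 61 to 80 and 0.0409 at ranks 1 to 20. Leydig markers stood at 775 CPM at ranks 61 to 80 and 358 CPM at ranks 1 to 20. The part of mixed nuclei in the results was not tested beyond the settings in the closing section.

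**Figure D1:**
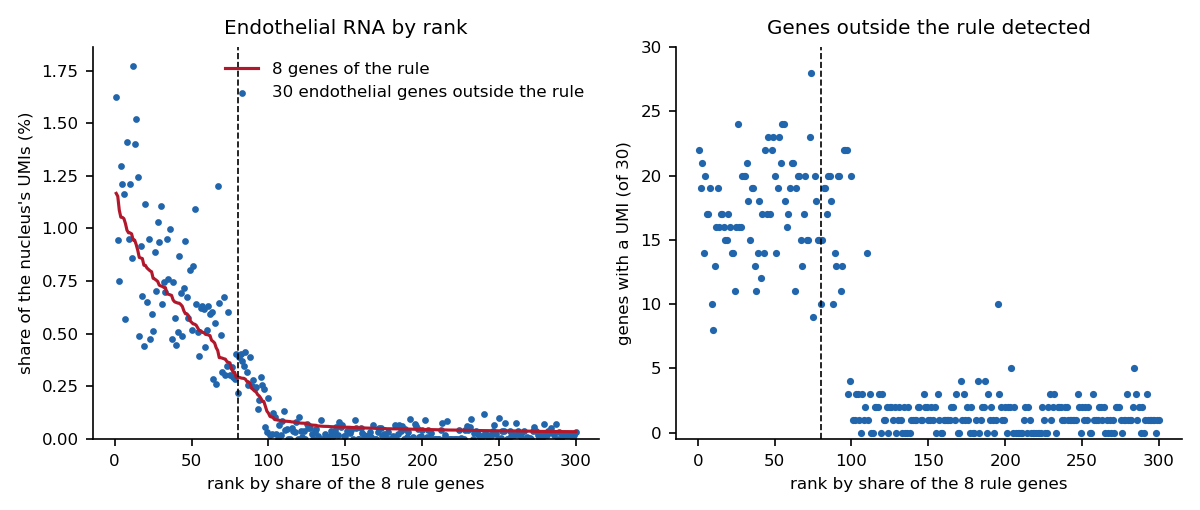
Left, share of UMIs (percent) in the 8 genes of the rule (line) and in 30 endothelial genes outside it (points) for the 300 highest-ranked nuclei; right, number of the 30 genes with a UMI. The dashed line marks the limit at 80 nuclei, and the points stay high past it to about rank 100, the summed level of the 30 genes being 2655 CPM at ranks 81 to 100.

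Most of the marker lists of other cell types given here were lower than in the remaining nuclei. Of 7 immune markers, 5 had no UMI in any endothelial nucleus, among them *Ptprc* and *Adgre1*, and the other two gave 4 UMIs. The range of the summed immune level was 0 to 395 CPM over endothelial nuclei, 0 to 9524 over the others and 362 to 9524 over the 77 nuclei with the highest immune share. Of 5 Sertoli markers, *Sox9*, the transcription factor of Sertoli cells, had no UMI, and the list summed to 73.2 CPM against 183 (0 to 595 over endothelial nuclei). Of 5 germ markers, *Dnd1* had none, and the sum was 59.0 CPM against 389 (0 to 812). The surface epithelium list, with *Krt19* and *Msln* at 0, summed to 8.74 CPM against 83.7 (0 to 182). The mesonephric list, with *Rxfp2* at 0, stood at 305 CPM against 1150 (0 to 1809), and the supporting-like list at 191 against 546 (0 to 1646). The 5 Leydig markers, all found, summed to 495 CPM against 806 in the other nuclei and 6587 in the Leydig nuclei, and ranged from 0 to 5156 over single endothelial nuclei. The 6 interstitial markers, *Lhx2* at 0, summed to 391 CPM against 1149 and ranged from 0 to 1668. The interstitial ratio of 0.34 was 0.203 with 40 nuclei taken and 0.583 with 160, and the Leydig ratio of 0.614 was 0.366 and 0.616. The contractile list, with *Cnn1* at 0, was near the others, at 148.6 CPM against 169 (0 to 676), a ratio of 0.879 (0.737 to 1.04). The pericyte list, with 6 of 7 markers found, was also near the others, with a sum of 142 CPM against 129 and a ratio of 1.10 (0.919 to 1.31). That ratio was 0.633 in the 40 highest-ranked nuclei and between 0.907 and 1.1 when 1 rule gene was left out of the ranking. That sum came mostly from *Abcc9*, with 64 UMIs in 18 nuclei, and *Pdgfrb*, with 42 UMIs in 10 nuclei and 17 of them in a single nucleus. It ranged from 0 to 1588 CPM over endothelial nuclei and 1161 to 5239 over the 79 pericyte nuclei, and *Steap4* had no UMI.

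Of the 30 endothelial genes outside the rule, 28 passed the limit of 100 UMIs, some of them, such as *Nos3* with 94 endothelial UMIs and 31 others and *Tie1* with 135 and 62, through the endothelial UMIs that make them high. With no limit, all 30 had a level at least 2-fold higher in the endothelial nuclei, the sparsest, *Gpihbp1*, on 3 UMIs. With a limit of 1000 UMIs, 7 were higher. The median log2 ratio of the 28 was 4.93, against -0.25 over all genes tested, of which 7.90% were at least 2-fold higher. *Calcrl*, the receptor for adrenomedullin, reached 1158 CPM against 37.3, a ratio of 31.1 (95% interval 28.9 to 33.3). *Emcn*, a sialomucin of venous and capillary endothelium, reached 1106 CPM against 20.6. *Adgrl4*, an adhesion receptor, stood at 386 CPM against 1.29, with UMIs in 60 nuclei. *Nos3*, the endothelial nitric oxide synthase, stood at 103 CPM against 0.397, and *Tie1* at 147 CPM against 0.793. The ratio was smallest for *Podxl*, at 3.56, a gene that was at 270 CPM in the surface epithelium nuclei. *Stab1*, at 65.5 CPM here, was at 315 CPM in the immune nuclei. In 28 of the 30 genes, the level was the highest among 12 groups of nuclei set apart by marker share. How often this held over all genes was not counted, so it is a description.

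Shares of nuclei with a UMI gave the same order at equal depth. After every nucleus was thinned to 2000 UMIs, *Emcn* was found in 66.3% of endothelial nuclei and *Calcrl* in 60 of the 80. In the germ nuclei, which should lack both, the thinned shares were 0% and 1.34%. Before thinning, at medians of 8486 UMIs in the endothelial and 13477 in the germ nuclei, the shares were 78.8% and 92.5% against 3.01% and 11.04%.

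**Figure D2:**
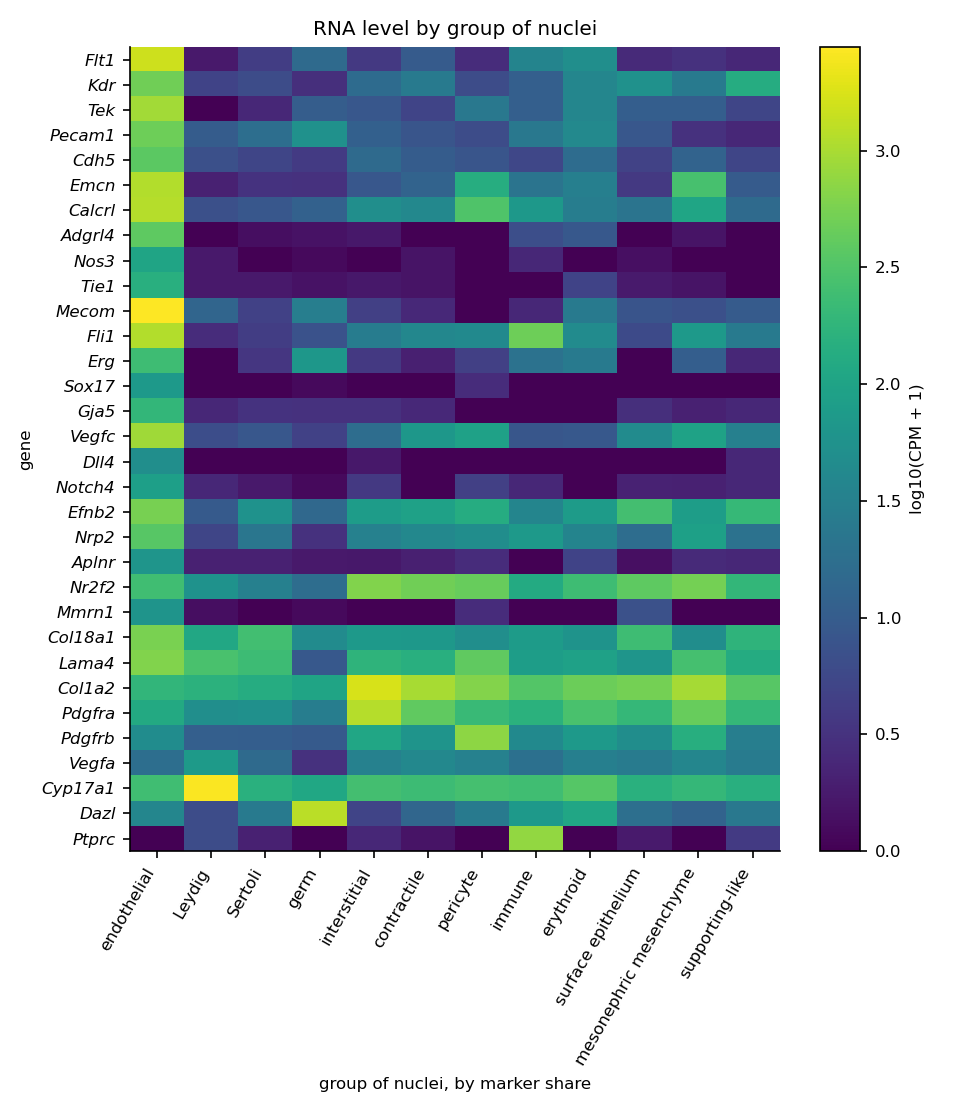
RNA level, as log10 of CPM plus 1, of 32 genes (rows) in the endothelial nuclei and in 11 other groups of nuclei set apart by marker share (columns). Genes of the endothelial lists are bright in the first column, with *Emcn* at 1106 CPM, while *Nr2f2*, *Col1a2* and *Pdgfra* are brighter in interstitial nuclei.

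Transcription factors of the endothelial programme were also high. Of 30 listed, 22 passed the limit of 100 UMIs, 20 of them at least 2-fold higher and none at least 2-fold lower, and with no limit 26 of the 30 were higher and none lower. The shares over all genes tested were 7.90% higher and 25.0% lower. *Fli1*, an ETS factor, was found in 79 nuclei, at 1123 CPM against 24.8 and with a median of 11 UMIs. *Erg*, a related ETS factor, stood at 233 CPM against 13.5. *Erg* was also present in germ nuclei, at 65.1 CPM, which is part of the level in the others. *Elk3* stood at 717 CPM against 37.1 and *Ets1* at 628 against 116. *Mecom* reached 2777 CPM against 17.4, from 0 to 226 UMIs per nucleus with a median of 22. The SOX factors *Sox17* and *Sox7*, both below the limit, were each at 69.9 CPM in 32 nuclei, against 0.269 and 0.448 CPM. *Sox18* gave 3 UMIs, a ratio of 51.2 with an interval from 7.96 to 263. *Etv2*, an early ETS factor of endothelial specification, had no UMI in any kept nucleus, where 3 UMIs would be 3.28 CPM in the endothelial nuclei. *Tcf4*, a broadly expressed factor, was at 3101 CPM against 1036 and was found in every germ nucleus as well.

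Genes of the VEGF and angiopoietin families were read without the 4 that chose the nuclei. Of the other 11, 5 were at least 2-fold higher and 3 lower, beside 7.90% and 25.0% of all genes tested. Among the higher ones, *Tie1* and *Flt4* passed the limit on UMIs over both groups only with their endothelial UMIs. *Nrp1*, a VEGF co-receptor, stood at 1276 CPM against 142 and was found in all 80 nuclei. *Nrp2*, a co-receptor of veins and lymphatics, stood at 355 CPM against 20.6 and was found in 50. *Flt4*, the receptor for VEGFC, stood at 41.5 CPM against 0.870 in 24 nuclei. Of the 7 ligands, *Vegfc* was the one at least 2-fold higher, at 902 CPM against 23.0, a ratio of 39.2 (36.0 to 42.6), and it was found in 45 nuclei. *Vegfa* was at 16.4 CPM against 31.5, a ratio of 0.520 (0.291 to 0.860), which misses the 2-fold limit. *Vegfd* was at 17.5 CPM against 63.8 and *Angpt1* at 28.4 against 58.0. *Angpt1* reached 724 CPM in the mesonephric mesenchyme nuclei and 296 CPM in the pericyte nuclei. *Vegfa* was highest in Leydig nuclei, at 73.6 CPM (64.0 to 84.2).

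Of 6 PDGF genes, 1 was higher and 3 were lower, beside 7.90% and 25.0% of all genes tested. *Pdgfb*, the ligand that recruits pericytes, was at 65.5 CPM against 3.27 and was found in 32 nuclei. Its receptor *Pdgfrb* was at 45.9 CPM against 73.8, and at 715 CPM in the pericyte nuclei. The ligands *Pdgfc* and *Pdgfa* were lower, with ratios of 0.129 and 0.437, and the receptor *Pdgfra* stood at 122 CPM against 303.

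Notch genes divided by member. Of 16, 13 passed the limit, 7 of them at least 2-fold higher and 1 lower, and over all 16 these were 10 and 1. The shares over all genes tested were 7.90% and 25.0%. The ligand *Jag2*, at 56.8 CPM against 2.01, was higher, and *Dll4*, with 45 endothelial UMIs and 27 others and so below the limit, is not read, at 49.2 CPM against 0.345. Higher as well were the receptors *Notch1*, at 150 CPM against 17.0, and *Notch4*, at 87.4 against 1.09. *Notch4* passed the limit only with its endothelial UMIs. *Notch2* was lower, at 57.9 CPM against 208. *Notch3* was at 50.3 CPM against 86.8, and at 472 CPM in the pericyte nuclei. Of the target genes, *Hey1* and *Hey2* were 14.6-fold and 13.6-fold higher, whereas *Hes1* had a ratio of 0.622 with an interval of 0.310 to 1.12.

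**Figure D3:**
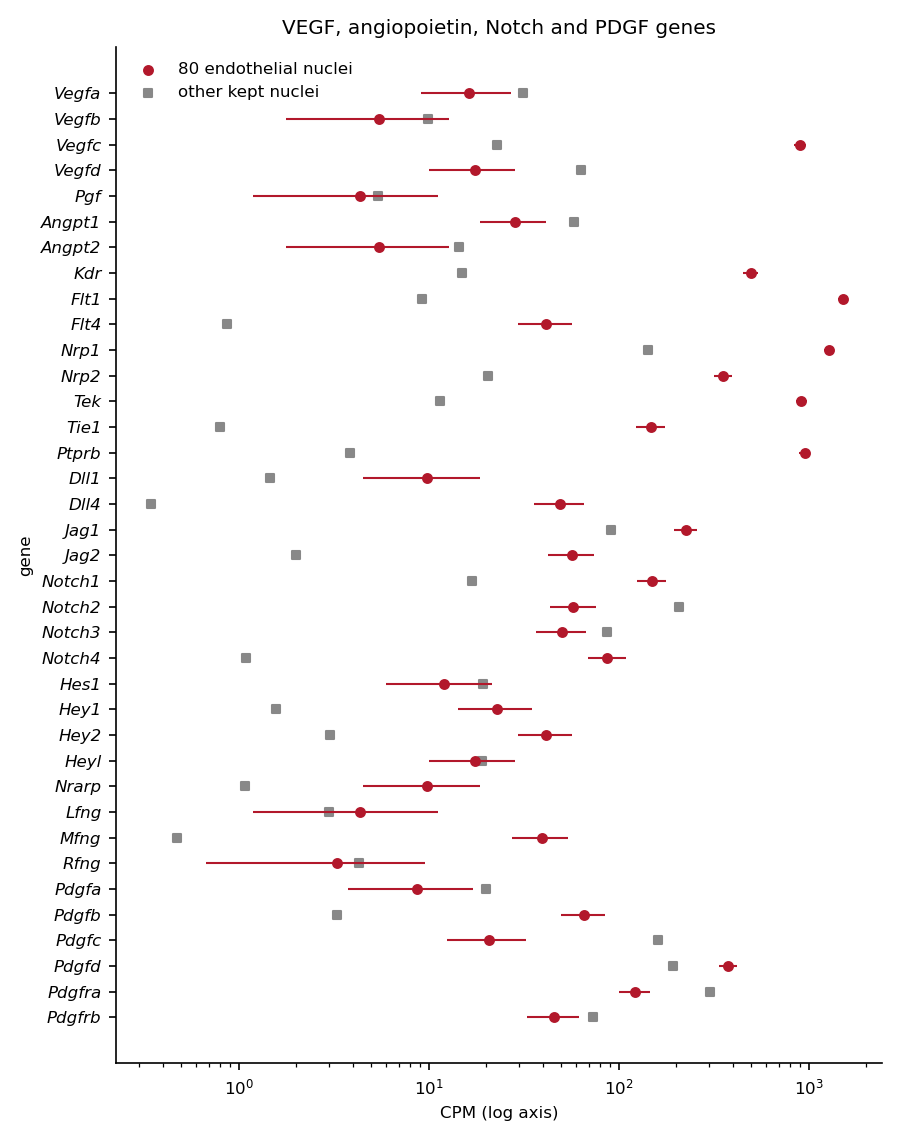
Level in CPM, on a log axis, of VEGF, angiopoietin, Notch and PDGF genes in the endothelial nuclei (circles, with exact Poisson 95% intervals) and the other nuclei (squares). The receptors *Tie1* and *Notch4* lie far to the right of the other nuclei, as do *Kdr*, *Flt1*, *Tek* and *Ptprb*, which chose the nuclei and so had to, while *Vegfa* at 16.4 CPM and *Pdgfrb* at 45.9 CPM lie to the left.

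Genes of the BMP and TGF-beta families were mixed. Of 20 genes, which are receptors, ligands, SMAD factors and targets, 7 were higher and 4 lower, with a median log2 ratio of 0.59. Over all genes tested, 7.90% were higher and 25.0% lower. The co-receptor *Eng* was at 252 CPM against 12.1, *Acvrl1*, the receptor it works with, at 33.9 against 10.3, and *Tgfbr2* at 292 against 34.4. The BMP receptor *Bmpr1a* was lower, at 123 CPM against 414, and the BMP regulator *Bmper* was at 5.46 against 52.7.

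Matrix genes separated by kind. In the basement membrane list, 7 of 14 were at least 2-fold higher and none lower. *Col18a1* was at 564 CPM against 96.1 and was found in all 80 nuclei. The laminin gene *Lama4* was at 623 against 150, and the perlecan gene *Hspg2* at 209 against 55.9. Of 11 genes of fibrillar collagens and interstitial matrix, none was higher and 5 were lower. Over all genes tested, 7.90% were higher and 25.0% lower. *Col1a2* stood at 184 CPM against 467, and *Col3a1* at 230 against 569.

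Of 21 guidance genes, 8 were higher and 7 lower, beside 7.90% and 25.0% of all genes tested. *Plxnd1*, the endothelial semaphorin receptor, was at 400 CPM against 39.6. *Robo4*, a receptor of the roundabout family typical of endothelium, was at 66.6 CPM against 0.601. It passed the limit on UMIs over both groups only with its endothelial UMIs. By contrast *Robo2* was at 1125 CPM against 3521, and the ligand *Slit2* at 674 against 2649. *Sema3e*, a ligand of PLXND1, had no UMI in the endothelial nuclei against 16.6 CPM. Of 21 junction and adhesion genes, 12 were higher and 1 lower, the higher ones including *Pcdh12*, a protocadherin of endothelial junctions, at 56.8 CPM against 0.844. *Pcdh12* too passed that limit only with its endothelial UMIs.

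Lists of vessel types were present to different degrees. Of 17 arterial genes, 14 passed the limit, 13 of them at least 2-fold higher and none lower, with a median log2 ratio of 3.31, and over all 17 there were 16 higher. Of 9 venous genes, 6 passed, 4 of them higher and none lower, with a median of 1.66. Over all 9 venous genes 5 were higher and 2 lower, *Selp* and *Bst1*, which had no UMI, and the median was 0.84. With 40 nuclei taken, the median over the venous genes that passed the limit was 2.42, to be read beside the 1.66 above. *Aplnr*, the apelin receptor of veins, stood at 62.3 CPM against 1.11. It passed the limit only with its endothelial UMIs, as did *Bmx* of the arterial list. Of 7 lymphatic genes, 5 passed, 3 of them higher and 1, *Pdpn*, lower. Of the higher ones, *Mmrn1*, with 55 endothelial UMIs and 53 others, and *Flt4*, with 38 and 68, passed only with their endothelial UMIs. Over all 7, 3 were higher and 3 lower, with a median of 0.34. The median of 2.21 over the 5 turned to -0.50 among genes with at least 1000 UMIs. Without nuclei of the top 6% of doublet scores it was 0.72, with 73 of the endothelial nuclei kept. Whether sparse genes just above the limit, such as *Mmrn1* and *Flt4*, still passed in that setting was not tested. The part of mixed nuclei in this lower median was not tested either. *Mmrn1* was at 60.1 CPM against 0.678 in 21 nuclei. *Prox1*, the factor that sets lymphatic identity, gave 18 UMIs in 13 nuclei, at 19.7 CPM against 3.47. *Lyve1* and *Ccl21a*, markers of lymphatic vessels, had no UMI. In the list of tip and capillary genes, 8 passed, of which 1 was higher and 3 were lower, beside 7.90% and 25.0% of all genes tested. Over all 13 in the table these were 4 and 5.

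The 20 genes with the largest ratios outside the rule, among 3935 with at least 50 CPM and a UMI in at least 20 endothelial nuclei, ran from 393 to 129. Both limits were on the endothelial nuclei, so a sparse gene could enter only through its level there, and the ranking is a description. The limit of 100 UMIs over both groups was not asked for, and *Clec1a*, *Sox17* and *Sox7*, among others, were below it. The nuclei at ranks 81 to 100, which also held endothelial RNA, are among the others, where the levels of these genes were low, and their part in the ratios was not tested beyond the other numbers of nuclei in the closing section. With 160 nuclei taken, 10 of the 20 genes were named again. *Clec1a*, a C-type lectin receptor, came first, at 50.3 CPM against 0.128, a ratio of 393 (196 to 873). *Bmx*, a kinase of arterial endothelium, was at 92.9 CPM against 0.256. *Ccm2l*, a partner in cerebral cavernous malformation signalling, *Dipk2b*, *Adgrl4*, *Sox17*, *Nos3*, *Tie1*, *Rasgrp3* and *St8sia6* followed, with ratios from 313 to 171. *Prex2*, a Rac exchange factor, was at 2046 CPM against 13.8, and *Rasgrp3*, a Ras exchange factor, at 584 against 3.39. *Itga2*, a collagen-binding integrin, stood at 591 CPM against 4.35 in 72 nuclei. *Ebf3* was at 432 CPM against 3.01, *Zfp366* at 180 against 1.37, *Prnd* at 88.5 against 0.627 and *Klhl4* at 507 against 3.93. *Mecom*, *Sox7*, *Gap43* and *C130074G19Rik* made up the rest, and 8 of the 20 were in the lists.

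Among genes with at least 50 CPM in the others, the smallest ratios belonged to *St18*, with no UMI in the endothelial nuclei against 53.6 CPM, and to *Slc25a21*, *Mei4* and *Gm884*, with 1 UMI each. *Mei4*, a meiotic recombination gene, and *Morc1*, a germline silencing gene, had UMIs in 66.6% and 84.3% of the germ nuclei. *Kctd8*, *Tmem108*, *Asic2*, *Grm7* and *2600014E21Rik* completed the 10, whose ratios reached at most 0.0650, that of *Morc1*.

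The summed cell cycle RNA was lower, though not every gene was. Summed over 97 genes of S and G2/M phase, it was 5144 CPM against 7030, a ratio of 0.732 (0.711 to 0.753). Over single nuclei it ran from 496 to 18228 CPM with a median of 2621, against a median of 4229 in the others. *Mki67*, a marker of cycling cells, was found in 36 of the 80 nuclei, at 145 CPM against 210. *Pcna*, a replication clamp, stood the other way, at 31.7 CPM against 21.1.

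*Nr2f2*, a nuclear receptor of interstitial cells that is also known from venous endothelium, was at 243 CPM against 287, a ratio of 0.845 (0.737 to 0.964). In the 40 highest-ranked nuclei the ratio was 1.19, so the direction depended on how many nuclei were taken. It was found in 57 of the 80 nuclei (71.3%, Clopper-Pearson interval 60.05 to 80.8%), with a median of 2 and a maximum of 12 UMIs. Thinned to 2000 UMIs, the share was 37.5%, against 2.01% in the germ nuclei. The level was 615 CPM in interstitial nuclei, 433 in pericyte nuclei and 56.8 in Leydig nuclei. *Nr5a1* was at 38.2 CPM against 82.2 and was found in 12 endothelial nuclei, but in none after thinning. Of 13 genes in the nuclear receptor list, 1 was at least 2-fold higher, *Pparg* with 5 UMIs, and 4 were lower, among them *Esr1*, at 95.0 CPM against 325. Over all genes tested, 7.90% were higher and 25.0% lower, so the list lay near those shares. Without nuclei of the top 6% of doublet scores the *Nr2f2* ratio was 0.835. Whether free RNA adds to these levels, or mixed RNA beyond that setting, was not tested.

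The 80 nuclei were not alike, and detection of *Gja5*, the connexin of arterial endothelium, divided them, though not cleanly. It was found in 24 nuclei, with up to 15 UMIs and a median of 7 among them, and in none of the other 56. This division was chosen after the values were seen, so the gene values across it are a description with no test. The 24 nuclei had a median of 8635 UMIs and the 56 a median of 8268. Median doublet scores were 0.0698 and 0.0422. The nuclei with *Gja5* lay from rank 3 to rank 77. On counts thinned to 2000 UMIs only 16 nuclei kept a *Gja5* UMI, so a 0 can be a missed transcript. Of the 24, 9 also had *Emcn*. The nucleus at rank 47 had no *Gja5* UMI but 7003 CPM of arterial and 264 CPM of venous genes, and that at rank 63 had 5194 and 2848 CPM.

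Arterial genes gathered in the 24 nuclei. The 16 arterial genes other than *Gja5* summed to 4685 CPM there and 1890 CPM in the 56, a ratio of 2.48 (2.29 to 2.68). *Hey2*, a Notch target of arteries, had UMIs in 17 of the 24 nuclei and 1 of the 56. *Bmx* had UMIs in 20 and 2, and *Unc5b*, a netrin receptor, in 24 and 8. *Dll4* had UMIs in 18 and 8. *Efnb2*, the classic arterial ephrin, was found on both sides, in 24 and 40 nuclei, at 1110 and 255 CPM. *Nrp1*, also on the arterial list, stood at 1390 and 1219 CPM, a ratio of 1.14 (1.01 to 1.29).

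Venous genes as a sum lay on the other side, though not every one did. The 9 venous genes summed to 289 CPM in the 24 nuclei and 1155 CPM in the 56, a ratio of 0.2502 (0.198 to 0.313). *Nrp2* was at 9.86 CPM in the 24 and 527 CPM in the 56, with UMIs in 2 and 48 nuclei. *Aplnr* had no UMI in the 24 and was found in 33 of the 56. *Nr2f2* was found in 6 of the 24 and 51 of the 56, at 69.0 and 329 CPM. *Ephb4*, the receptor paired with EFNB2, stood at 78.8 and 139 CPM. *Il1r1*, an interleukin receptor, and *Vcam1*, an adhesion molecule, went the other way, at 101.8 and 57.3 CPM with a ratio of 1.78 (1.06 to 2.97) and at 29.6 and 8.18 CPM with a ratio of 3.61 (1.09 to 13.7). *Emcn* was at 88.7 and 1612 CPM, and *Plvap*, of fenestrated capillaries, had no UMI in the 24 and was found in 31 of the 56.

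*Vegfc* was found in all 24 nuclei with *Gja5* and in 21 of the 56 without, at 2273 and 219 CPM, so the high *Vegfc* level of the whole set came mainly from the former. *Vwf* was at 480 and 60.6 CPM, *Mecom* at 5167 and 1586 CPM and *Sox17* at 148 and 31.1 CPM. Genes shared by both sides included *Fli1*, at 1018 and 1175 CPM, and *Erg*, at 253 and 223 CPM. *Mki67* was at 148 and 144 CPM. *Mmrn1* was found in 1 and 20 nuclei, and *Prox1* in 2 and 11.

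Outside the lists, the genes with the widest ratios among 2368 with at least 100 CPM and a UMI in at least 20 of the 80 nuclei included *Npr3*, a clearance receptor for natriuretic peptides, at 867 and 13.1 CPM. *Prdm16*, a transcriptional regulator, had UMIs in all 24 and in 2 of the 56, at 581 and 11.5 CPM. *Sat1*, *Tec*, *Dkk2*, *Sox6* and *Antxr1* were also higher with *Gja5*. In the other direction, *Tll1*, a metalloproteinase, was at 16.4 and 1445 CPM, with UMIs in 2 and 32 nuclei. *Igf1*, the insulin-like growth factor, was at 9.86 and 344 CPM and *Pde7b* at 9.86 and 570 CPM. Of the junction list, *Pcdh17*, a protocadherin, was at 88.7 and 1496 CPM.

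**Figure D4:**
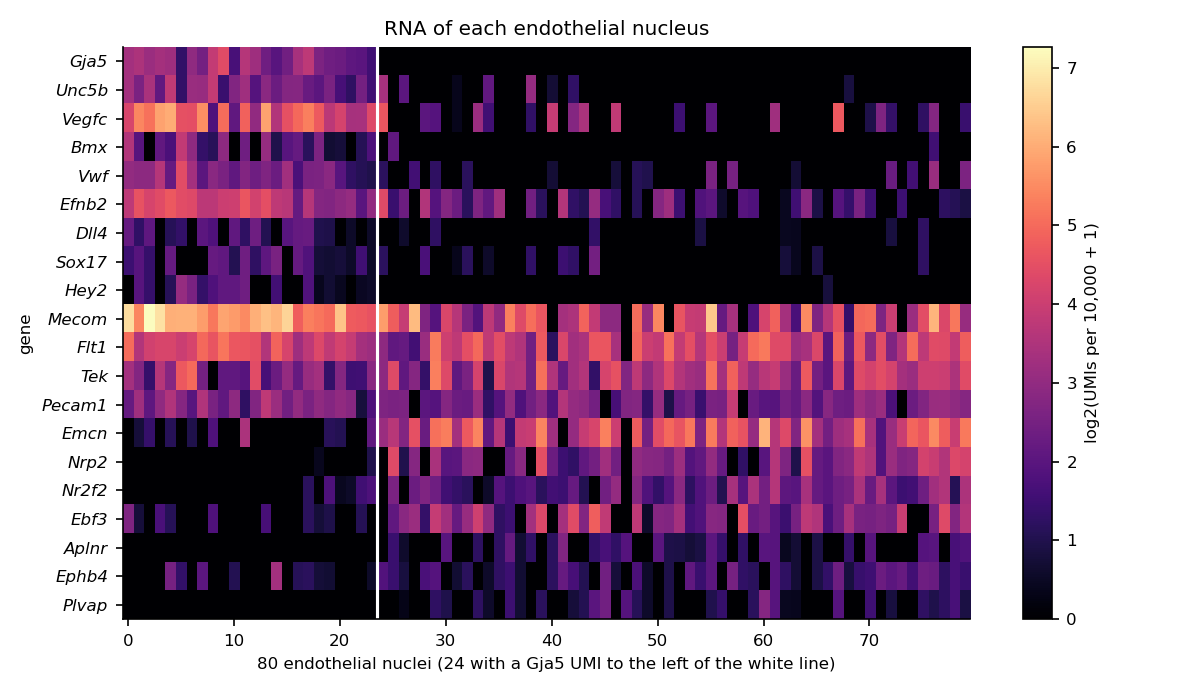
RNA of 20 genes (rows) in each of the 80 endothelial nuclei (columns), on a log2 scale after scaling to the nucleus's total, with the 24 nuclei with a *Gja5* UMI left of the white line. *Unc5b*, *Vegfc* and *Bmx* are bright on the left and *Emcn*, *Nrp2* and *Nr2f2* on the right, and *Flt1*, *Tek* and *Pecam1*, which chose the nuclei and so are found on both sides, are drawn for reference.

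The ATAC library was read in the same 80 nuclei. The rule had used its total cuts at peaks, over 500 per nucleus, but not which genes they lay at. Peaks had been called over all nuclei together, so fragments were counted in 3 further ways as well: at all peaks nearest to a gene within 50 kb, within 1 kb of a gene's annotated starts, and over the gene body with 2 kb upstream. Over gene bodies, 6.26% of 24382 genes were at least 2-fold higher in the endothelial nuclei. The 30 endothelial genes outside the rule held 682 gene body fragments there, a ratio of 2.44 (2.26 to 2.63), with 22 of the 30 at least 2-fold higher. Near starts the ratio was 2.96 (2.52 to 3.45), from 165 fragments, with 13 of 19 genes that passed at least 2-fold higher, beside 5.97% of all genes, and 1 at least 2-fold lower. At promoter peaks 9 of 14 were higher, beside 7.75% of all genes, and 16 of 24 at nearby peaks, beside 7.94%. The promoter peak median of 1.04 on the log2 scale rested on 118 fragments.

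For single genes the fragments were few. *Nos3* had 12 fragments near its start, a ratio of 15.2, and *Aplnr* had 10, a ratio of 17.6. *Flt1* had 17, a ratio of 7.35, and *Cd93* and *Ecscr* had 7 and 11, with ratios of 10.4 and 9.94. For others no excess was detectable at this depth, with 2 fragments for *Ramp2*, a ratio of 0.463 (0.0559 to 1.68), 4 for *Shank3*, a ratio of 0.542 (0.147 to 1.39), and 1 for *Calcrl*, a ratio of 0.594 (0.0150 to 3.35). *Emcn* had 1 fragment there and 22 over its gene body, a ratio of 3.03. In single nuclei, the 30 genes held a median of 7 gene body fragments (0 to 41), against 3 in the others. Relative to a nucleus's own fragments, 40 of the 80 endothelial nuclei reached the top 5% of kept nuclei, against 4.52% of the others.

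Other lists followed in part. Endothelial transcription factors had a gene body ratio of 1.76 (1.66 to 1.86), and the arterial list 1.76 (1.60 to 1.93). The arterial ratio was smaller in the other windows, at 1.37 (1.11 to 1.67) near starts, 1.17 (0.898 to 1.5) at promoter peaks and 1.18 (0.982 to 1.4) at nearby peaks. For the transcription factors these were 1.52, 1.63 and 1.56. The fibrillar collagen list was lower, at 0.494 (0.391 to 0.617), with 7 of 11 genes at least 2-fold lower, beside 14.4% of all genes. The basement membrane list was at 1.41 (1.30 to 1.53), with no gene at 2-fold. The lymphatic list was at 0.984 (0.788 to 1.22).

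**Figure D5:**
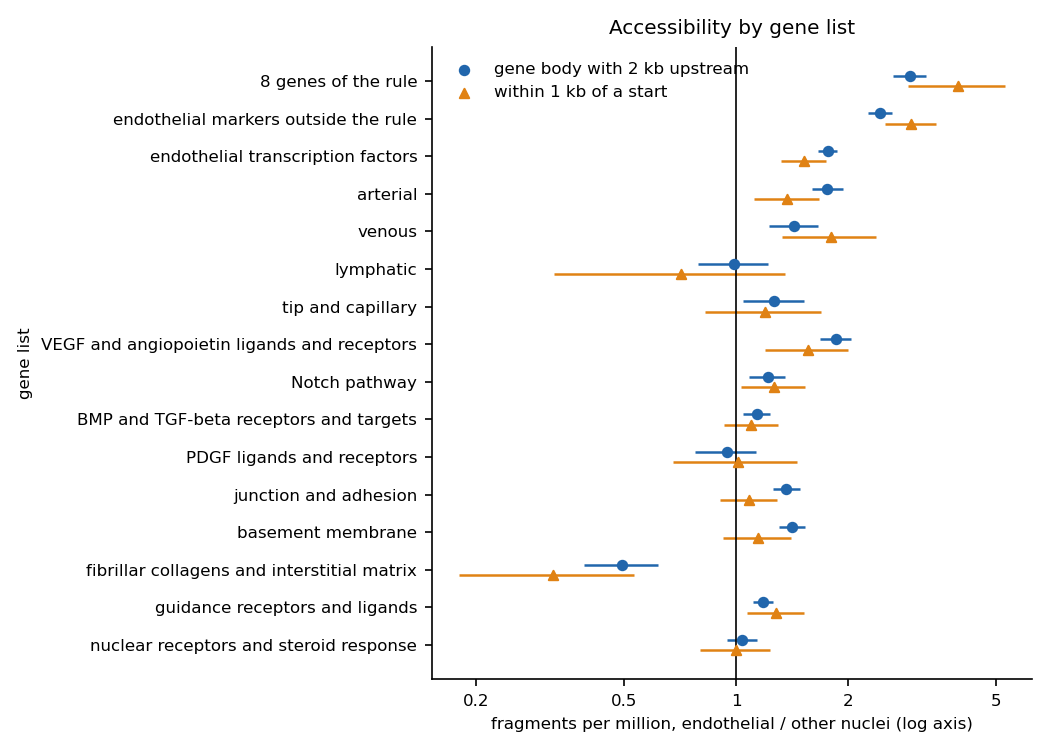
Ratio of ATAC fragments relative to the total, endothelial over other nuclei, on a log axis, summed over each gene list with 95% counting intervals, for gene bodies (circles) and windows at starts (triangles). Endothelial markers outside the rule lie at 2.44 and 2.96, and fibrillar collagens at 0.494 and 0.322.

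The division by *Gja5* RNA appeared in part in ATAC fragments. Over gene bodies, the 16 arterial genes had 163 fragments in the 24 nuclei and 220 in the 56, a ratio of 1.85 relative to all fragments (1.5 to 2.27). The venous list gave 0.743 (0.506 to 1.07), an interval that includes 1. *Gja5* itself had 32 and 18 gene body fragments, a ratio of 4.44 (2.42 to 8.39), and *Unc5b* 34 and 24, a ratio of 3.53. *Vegfc* had 12 and 6 fragments, and *Nrp2* 8 and 44, a ratio of 0.454. *Aplnr* had no fragment in the 24 and 11 in the 56. Other genes of both lists did not follow their RNA at this depth. Of the arterial list, *Notch1* had a ratio of 0.832 (0.441 to 1.49), *Nrp1* 0.913 (0.469 to 1.68), and *Gja4* no fragment in the 24 and 3 in the 56. Of the venous list, *Ephb4* had a ratio of 1.30 (0.590 to 2.73) and *Nr2f2* 0.891 (0.251 to 2.62). The 8 genes of the rule gave 1.15 (0.916 to 1.43).

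Promoters of 4 endothelial genes are shown, *Egfl7* and *Tek* by rule and *Flt1* and *Robo4* after their values were seen, because fragments with an end within 1 kb of the middle of each could be counted beside the letters. Sequences are from RefSeq on GRCm38.p6, in the direction of transcription, and capitals mark GGAA or its reverse complement TTCC, the core letters of ETS sites. The second *Egfl7* start, at chr2:26583615-26583914 on the plus strand, had 10 fragments in endothelial nuclei, a ratio of 11.8 (5.49 to 22.7), and holds CAGGAAG once. It had the largest ratio of 3 *Egfl7* starts and was chosen for that, the other two having 3 fragments with a ratio of 5.47 (1.10 to 16.7) and 5 with a ratio of 1.21 (0.391 to 2.85). The start with the ratio of 5.47 holds 2 copies of CAGGAAG and 1 of AACAGGAA, and that with 1.21 holds neither. The *Flt1* promoter, at chr5:147725962-147726261 on the minus strand, had 17 fragments, a ratio of 7.59 (4.35 to 12.4), and holds neither CAGGAAG nor AACAGGAA. The *Robo4* promoter, at chr9:37401722-37402021 on the plus strand, had 5, a ratio of 7.41 (2.34 to 18.1), and holds CAGGAAG once. The *Tek* promoter, at chr4:94739039-94739338 on the plus strand, had 2, a ratio of 2.62 with an interval of 0.312 to 9.74, and holds AGATAA once. A *Gja5* promoter was counted in the same way and is not printed. It had 1 fragment, a ratio of 1.11 (0.0279 to 6.34), and holds neither CAGGAAG nor AACAGGAA. GGAA alone is common, being in 96.0% of 32851 promoters of the same length, while CAGGAAG is in 13.3%, AGATAA in 11.2% and AACAGGAA in 2.65%.
Egfl7: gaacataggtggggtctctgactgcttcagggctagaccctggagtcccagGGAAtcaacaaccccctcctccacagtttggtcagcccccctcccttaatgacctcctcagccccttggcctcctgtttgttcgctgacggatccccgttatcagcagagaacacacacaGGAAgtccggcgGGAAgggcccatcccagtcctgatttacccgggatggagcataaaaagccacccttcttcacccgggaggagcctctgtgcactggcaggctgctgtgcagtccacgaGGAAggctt
Flt1: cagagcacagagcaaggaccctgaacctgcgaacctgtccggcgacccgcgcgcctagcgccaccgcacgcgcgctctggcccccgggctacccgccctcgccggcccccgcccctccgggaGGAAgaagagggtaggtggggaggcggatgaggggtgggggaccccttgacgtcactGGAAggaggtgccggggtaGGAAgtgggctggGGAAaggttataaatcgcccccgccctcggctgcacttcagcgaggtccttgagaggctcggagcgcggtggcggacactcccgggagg
Robo4: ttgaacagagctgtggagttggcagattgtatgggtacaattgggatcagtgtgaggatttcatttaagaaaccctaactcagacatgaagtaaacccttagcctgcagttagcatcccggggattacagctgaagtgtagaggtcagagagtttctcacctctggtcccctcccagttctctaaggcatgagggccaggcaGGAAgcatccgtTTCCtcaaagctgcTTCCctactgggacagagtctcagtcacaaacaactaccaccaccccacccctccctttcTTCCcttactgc
Tek: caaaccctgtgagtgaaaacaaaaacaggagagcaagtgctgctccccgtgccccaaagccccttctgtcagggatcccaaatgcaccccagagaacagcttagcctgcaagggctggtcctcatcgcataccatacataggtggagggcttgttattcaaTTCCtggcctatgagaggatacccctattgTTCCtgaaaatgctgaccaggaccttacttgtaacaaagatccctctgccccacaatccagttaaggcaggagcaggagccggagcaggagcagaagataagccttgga

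Of single peaks with fragments in at least 12 endothelial nuclei, the 10 with the largest ratios lay between 22.5 and 3.45. That limit was on the endothelial nuclei, so a sparse peak could enter only through its fragments there. The ranking is a description, and the intervals do not allow for the choice of the largest. The first, at chr13:63642416-63643314, lay outside any gene, 77130 bases from the nearest coding start, that of *Ptch1*. It had 12 fragments in 12 endothelial nuclei (15.0% of them), and fragments in 0.863% of the others, a ratio of 22.5 (11.1 to 42.1). A peak inside *Dock6*, at chr9:21846539-21847437 and 5646 bases from the gene's start, had 14 fragments and a ratio of 5.67 (3.06 to 9.66). An intergenic peak at chr4:55650902-55651792, 118882 bases from the start of *Klf4*, a shear-responsive factor, had 16 fragments and a ratio of 4.20 (2.38 to 6.89). At *Klf4* itself the ratio was 0.964 (0.526 to 1.62) over the gene body and 0.798 (0.364 to 1.52) near starts. Whether the peak acts on *Klf4* was not tested. A peak inside *Adgra2*, at chr8:27106547-27107414, had 16 fragments and a ratio of 5.10 (2.89 to 8.39).

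The central 300 bases of 4 of the 10 peaks are shown, that with the highest ratio, that in *Dock6* for its number of ETS letters, chosen after the values were seen, and those nearest to genes of the lists, *Klf4* and *Afdn*, read from the plus strand of GRCm38.p6 with the same capitals. The windows are chr13:63642715-63643014, chr9:21846838-21847137, chr4:55651197-55651496 and chr17:13683603-13683902. The last lies in a peak 76788 bases from the start of *Afdn*, a junction gene, with 12 fragments and a ratio of 5.36 (2.74 to 9.52). The *Dock6* window holds GGAA 10 times and CAGGAAG 3 times, and the first window holds GGAA 8 times and AACAGGAA once.
Peak on chromosome 13: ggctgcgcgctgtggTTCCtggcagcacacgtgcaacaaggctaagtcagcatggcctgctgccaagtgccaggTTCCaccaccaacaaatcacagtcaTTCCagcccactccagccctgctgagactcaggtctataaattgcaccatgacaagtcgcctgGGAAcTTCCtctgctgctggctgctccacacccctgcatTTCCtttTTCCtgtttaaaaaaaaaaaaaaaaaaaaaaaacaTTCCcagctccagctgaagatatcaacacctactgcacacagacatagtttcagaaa
Peak in Dock6: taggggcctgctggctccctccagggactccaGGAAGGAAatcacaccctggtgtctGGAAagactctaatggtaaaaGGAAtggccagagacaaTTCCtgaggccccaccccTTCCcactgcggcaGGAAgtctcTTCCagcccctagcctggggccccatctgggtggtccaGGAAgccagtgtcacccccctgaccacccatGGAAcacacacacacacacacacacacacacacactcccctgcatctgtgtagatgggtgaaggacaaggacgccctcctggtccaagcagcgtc
Peak near Klf4: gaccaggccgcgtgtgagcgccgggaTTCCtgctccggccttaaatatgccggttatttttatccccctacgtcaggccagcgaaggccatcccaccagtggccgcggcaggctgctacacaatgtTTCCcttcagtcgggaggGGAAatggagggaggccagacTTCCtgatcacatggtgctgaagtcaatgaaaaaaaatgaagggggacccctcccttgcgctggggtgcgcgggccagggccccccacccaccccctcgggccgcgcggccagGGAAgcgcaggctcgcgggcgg
Peak near Afdn: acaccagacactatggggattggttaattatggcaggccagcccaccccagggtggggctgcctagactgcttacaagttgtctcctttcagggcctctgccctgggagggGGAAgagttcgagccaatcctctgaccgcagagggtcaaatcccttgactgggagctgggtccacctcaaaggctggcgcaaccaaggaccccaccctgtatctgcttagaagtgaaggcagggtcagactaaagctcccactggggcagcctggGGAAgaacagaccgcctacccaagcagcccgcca

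The same letters were counted over more peaks, in the central 300 bases and on both strands. Over 1 kb from any annotated start, 309 peaks had fragments in at least 6 endothelial nuclei and a ratio of at least 3, limits that were set after the data were seen. CAGGAAG was in 36.2% of them, against 14.8% of all 91537 peaks at that distance. Among 411 such peaks with fragments in as many endothelial nuclei but a ratio under 3, it was in 14.4%. AACAGGAA, the joined letters of FOX and ETS sites, was in 7.12%, against 3.14% and 2.19%. ACAAT, the core of SOX sites, was in 42.7%, against 35.2% and 17.5%, and AGATAA, of GATA sites, in 15.2%, against 19.6% and 4.14%. TGACTCA, of AP-1 sites, was in 8.74%, against 6.42% and 3.65%, and CCGGAAG in 4.21%, against 2.37% and 10.7%. GGAA was in 98.7%, against 97.1% and 95.1%, and is contained in the other ETS strings, so these counts overlap. Median GC content was 54.3% in the 309 peaks, 48.7% in all peaks at that distance and 64.0% in the 411, and its part in these shares was not tested.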

How the data were processed

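Single-nucleus RNA and ATAC libraries were made by the authors from whole E14.5 testes with the 10x multiome assay and run through Cell Ranger ARC 2.0.1 on mm10, which shares its chromosome coordinates with GRCm38. The deposited matrix holds raw counts per barcode, gene UMIs and peak cuts of the transposase, and the deposited fragment list holds counts of read pairs per unique fragment, with no normalization. No column of another sample was used.

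Barcodes with 2000 to 50000 UMIs, under 10% mitochondrial UMIs and over 500 cuts at peaks were kept and ranked by share of UMIs in the 8 genes, and the top 80 were taken. The members, the 15 gene lists and the marker lists were chosen with earlier results of these data known. Comparison groups were the 300 or 80 nuclei with the highest share of each class's markers, endothelial nuclei left out and a nucleus on more than 1 list kept where it ranked highest. Named genes were all listed genes, the 20 largest and 10 smallest ratios, and the 10 peaks with the largest ratios, at the limits given in the text. Gene names came from the deposited feature table, and 32235 of 32285 genes were matched to GENCODE M21. A marker list is not reported here.

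UMIs or unique fragments were summed per group. Levels have exact Poisson, ratios exact conditional binomial and shares Clopper-Pearson intervals at 95%, and a pseudocount of 1 CPM was used for log2 ratios. Promoter and nearby peaks were scaled to fragments at peaks, other windows to all fragments. Intervals cover counting error only, not the spread between testes or libraries. No ambient RNA or doublets were removed in the main values. Scrublet scores came from scanpy 1.11.5, cell cycle genes from Seurat 5.3.0, and other steps used Python 3.11.15, numpy 2.4.6, scipy 1.17.1 and pandas 2.3.3. The ratio code was tested on simulated data. Alternatives changed the number of nuclei taken, the limits on nuclei, doublets, ranking genes, pseudocount, filter, averaging, fragment units and thinning.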

Additional observations from a re-analysis of the deposited data

How the results depend on the processing

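Of 273 values under other settings, 220 stayed within the counting interval of a ratio or share, or within 1.5 times for list medians and counts, 43 moved further and 10 changed direction. The cause was not tested unless the setting itself shows it. With 40 nuclei taken, the ratio to the others was 0.613 for cell cycle, 0.203 for interstitial, 0.366 for Leydig and 0.633 for pericyte markers, 1.19 for *Nr2f2* and 2.91 for gene bodies, the log2 medians were 2.42 for venous genes, -1.95 for PDGF genes and 1.67 for promoter peaks, and 13 of the 20 named genes with the largest ratios were shared. With 160 nuclei, the cell cycle ratio was 0.762, the interstitial ratio 0.583 and the gene body ratio 1.74, the medians were 4.32 for endothelial, 2.62 for arterial and -0.04 for PDGF genes, and 10 named genes were shared. Without nuclei of the top 6% of doublet scores, cell cycle was at 0.761, Leydig at 0.498, pericyte at 1.42 and gene bodies at 2.22, and the lymphatic median was 0.72. Ranking by the number of rule genes found gave 0.76, 0.403 and 0.754 for cell cycle, interstitial and Leydig markers, and shared 69 of the 80 nuclei. Leaving out each rule gene in turn shared 77 to 79 nuclei and gave 0.712 to 0.782 for cell cycle, 0.542 to 0.671 for Leydig and 0.907 to 1.1 for pericyte markers, below 1 without *Pecam1* (0.958), *Egfl7* (0.924), *Cdh5* (0.924), *Kdr* (0.907), *Ptprb* (0.986) or *Cyyr1* (0.942).

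A pseudocount of 10 CPM gave medians of 3.10 for endothelial, 2.52 for arterial, 1.14 for lymphatic and 3.08 for VEGF and angiopoietin genes, the last over 15 genes that include the 4 of the rule, so that it is a description. With no filter on low counts the medians were 0.84 for venous, 0.34 for lymphatic and 2.26 for Notch genes, and with levels averaged over nuclei 2.80 for lymphatic and -1.70 for PDGF genes. Asking for at least 1000 UMIs left 7 endothelial genes at least 2-fold higher with a median of 4.28, and turned the medians of the lymphatic list to -0.50 and of the Notch list to -0.38. Sparse genes that were higher, such as *Mmrn1*, *Flt4* and *Notch4*, fell under that limit. Thinning brought the share of nuclei with *Nr2f2* to 37.5%. Of settings added after the data were seen, the arterial RNA ratio across the *Gja5* division was 2.71 in ranks 1 to 60, and the venous one 0.313 on thinned counts. No paired analysis was possible because each assay had 1 library. Depth limits the ATAC values of single genes, most of which rest on fewer than 20 fragments.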
